A study of Homo sapiens with 12 samples.

Results

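The genes described here encode the core of Polycomb repressive complex 1 (PRC1): PCGF1, PCGF2, PCGF3, BMI1 (also known as PCGF4), PCGF5 and PCGF6, the E3 ligase genes RING1 and RNF2, and the accessory subunit genes RYBP and L3MBTL2. They were chosen by gene symbol, with PCGF6 taken because the study names it and the others because their products share a complex with it, and all 10 were found among the 58302 genes of the files. The study itself picked PCGF6 from genes that its own test of these same data called changed in both cell lines. A change of PCGF6 RNA is therefore no independent result here, because it was a condition of the choice. The RNA sequencing covered 769-P and ACHN cells, both established renal carcinoma cell lines that the labels call clear cell renal cell carcinoma. Each line was transfected for 48 h with siRNA to NUF2 (siNUF2), which the supplement of the study describes as a mixture of 2 siRNAs picked in pilot knockdowns, or with a control siRNA (siControl), with 3 libraries in each of the 4 groups (769-P siNUF2, 769-P siControl, ACHN siNUF2 and ACHN siControl). The labels name no other allele or agent, and they do not say whether the replicates were separate cultures, so the p-values measure the spread between libraries, which may be technical.

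PRC1 is a family of chromatin complexes that place monoubiquitin on histone H2A and help to keep developmental genes silent. Every PRC1 holds RING1 or RNF2 as its E3 ligase, together with 1 PCGF protein, and the PCGF protein decides which other subunits join. PCGF2 and BMI1 form the canonical complexes with CBX and PHC proteins, PCGF1 pairs with KDM2B and BCOR, PCGF3 and PCGF5 pair with AUTS2 and casein kinase 2, and PCGF6 pairs with L3MBTL2, MGA, MAX, E2F6, TFDP1, CBX3 and histone deacetylases on the promoters of germline genes. RYBP or its paralog YAF2 takes the place of a CBX protein in the variant complexes.

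Values are FPKM (fragments per kilobase of exon, relative to the fragments of the library), scaled within each cell line. FPKM are per length, so levels are set side by side between genes, but such an order depends on the gene models and on overlaps with other genes. The reads recovered from the FPKM numbered 29244018 to 38864846 per library, and the 10 genes had 423 to 3646 reads each. Counting error, as the SD expected from the number of reads, was 4.86% for the value with the fewest reads and lower for the others. NUF2, which encodes a kinetochore protein and was the target of the siRNA, was at 19.5, 17.7 and 17.7 FPKM in the 769-P siControl libraries and at 4.21, 3.85 and 3.02 in the siNUF2 libraries (replicates 1 to 3). In ACHN cells NUF2 was at 11.4, 15.0 and 14.7 FPKM under siControl and at 2.19, 5.14 and 4.28 under siNUF2. The level under siNUF2 was therefore 17.1% to 21.8% of the same-numbered control in the 769-P line and 19.1% to 34.4% in ACHN cells, and the groups did not overlap in either line. The renal markers PAX8, PAX2, KRT8, KRT18 and VIM were at 5.55 FPKM or more in every library, but CA9, a marker of clear cell carcinoma, was at 0.121 or less, and NDUFA4L2, another one, was at 0.0494 or less in the 769-P line and at 1.08 to 4.07 in ACHN cells. Of the 7 markers of other cell types, PTPRC, CD68, PECAM1, CDH5 and COL1A2 were at 0.0951 FPKM or less in every library. In ACHN cells replicate 2 of both siRNAs stood apart, with COL1A1 at 3.39 and 3.86 FPKM against 1.13 to 1.75 in the other ACHN libraries, PDGFRB at 2.79 and 1.17 against 0.230 to 0.626, and PAX8 at 57.6 and 57.0 against 143 to 198. COL1A1 and PDGFRB did not exceed 0.139 FPKM in any 769-P library.

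The gene at the centre of the comparison, PCGF6, lies on the reverse strand of chromosome 10 (103302796 to 103351144, GRCh38), and none of its exon bases is shared with another annotated gene. Its RefSeq promoter (chr10:103351091-103351390, GRCh38.p14, reverse strand) is printed 5′ to 3′, from 250 bases before the start site, with the bases from the start site on in capitals. This promoter was picked because PCGF6 was the one gene of the 10 with an adjusted p under 0.05 in the main limma fit of the 769-P line. Parts of the promoters of RNF2 (chr1:185045417-185045483, forward strand) and BMI1 (chr10:22320999-22321064, forward strand) are shown with it, because they hold the only matches among the 10 genes to the motifs recognised by DNA-binding subunits of the PCGF6 complex, which are in capitals. All 10 genes matched at least 1 of the promoter entries.
PCGF6: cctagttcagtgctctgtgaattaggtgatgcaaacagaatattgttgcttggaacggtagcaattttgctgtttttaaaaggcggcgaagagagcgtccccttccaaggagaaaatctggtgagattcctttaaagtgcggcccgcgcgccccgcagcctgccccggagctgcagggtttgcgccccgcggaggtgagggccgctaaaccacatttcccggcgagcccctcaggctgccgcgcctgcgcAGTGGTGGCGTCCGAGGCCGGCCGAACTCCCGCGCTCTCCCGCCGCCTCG
RNF2: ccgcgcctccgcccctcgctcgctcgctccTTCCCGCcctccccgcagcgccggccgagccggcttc
BMI1: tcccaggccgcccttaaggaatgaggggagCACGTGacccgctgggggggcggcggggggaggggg
The motifs searched on both strands were TTCCCGC, the core bound by E2F factors, and CACGTG, the E-box bound by MAX and its partners, and neither motif contains the other. The E2F core was present in 6.55% of all 35116 promoters of this length and the E-box in 7.26%. The RNF2 match starts at position -111 and the BMI1 match at position -70, each relative to the start site of its promoter entry. The BMI1 match lies in the entry at chr10:22320849-22321148, and the other BMI1 entry (chr10:22321706-22322005) held neither motif. The PCGF6 window held 28 CG dinucleotides, against a median of 14 over all promoters, and 73.8% of promoters held fewer. No assay of these promoters is part of the data, so the sequences serve only as a description.

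Under siControl both lines expressed all 10 genes, with RING1 and PCGF2 at the top. In the 769-P line the order was RING1 (16.8 ± 1.36 FPKM, SD, n = 3), PCGF2 (14.2 ± 0.802), PCGF3 (9.24 ± 1.00), RNF2 (8.66 ± 0.644), PCGF5 (8.44 ± 1.15), PCGF6 (7.51 ± 0.166), PCGF1 (6.29 ± 0.430), BMI1 (5.94 ± 0.821), L3MBTL2 (4.90 ± 0.496) and RYBP (4.76 ± 0.428). The ranges of RING1, PCGF2 and PCGF3 did not touch, whereas PCGF3 to PCGF6 overlapped from one to the next, as did PCGF1 to RYBP. In ACHN cells the order was RING1 (28.7 ± 5.65), PCGF2 (27.3 ± 1.99), RYBP (11.2 ± 1.14), PCGF5 (11.0 ± 1.41), BMI1 (10.1 ± 1.17), PCGF1 (9.14 ± 0.568), RNF2 (7.31 ± 0.582), PCGF6 (5.27 ± 0.271), PCGF3 (4.65 ± 0.471) and L3MBTL2 (2.49 ± 0.218). There the ranges of RING1 and PCGF2 overlapped, those of RYBP to PCGF1 overlapped from one to the next, and PCGF6 overlapped with PCGF3 only.

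The baseline of the complex thus differed between the lines. In a limma fit of all 12 libraries, all 10 genes differed between ACHN and 769-P cells under siControl at an adjusted p under 0.05, beside 63.4% of the 16564 genes tested. Expressed as the log2 difference of ACHN over 769-P, 6 genes were higher in ACHN cells: RYBP by 1.17 (SE 0.099), PCGF2 by 0.89 (SE 0.074), RING1 by 0.71 (SE 0.18), BMI1 by 0.71 (SE 0.16), PCGF1 by 0.49 (SE 0.085) and PCGF5 by 0.34 (SE 0.12). The other 4 were lower in ACHN cells, where the log2 difference was -1.02 (SE 0.10) for PCGF3, -0.99 (SE 0.11) for L3MBTL2, -0.55 (SE 0.090) for PCGF6 and -0.29 (SE 0.090) for RNF2. The calls of PCGF5 (adjusted p = 0.0334) and RNF2 (adjusted p = 0.0168) were lost in 6 and 2 other settings, at adjusted p-values up to 0.173 and 0.0675. One of these is upper-quartile scaling, which shifted the median log2 difference of all genes to -0.17 and left PCGF5 at 0.20.

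PCGF6 RNA was upregulated after siNUF2 in the 769-P line. The study also counted PCGF6 among the genes that its own test of these RNA data called in both lines. By contrast, it reported from a western blot, at the same time after transfection, that NUF2 knockdown left PCGF6 protein unaffected in both lines. The values here are of RNA only, and the cause of this contrast was not tested. PCGF6 was at 7.63, 7.57 and 7.32 FPKM in the siControl libraries and at 11.3, 10.8 and 9.94 in the siNUF2 libraries. Every siNUF2 library lay above every control, and the 3 same-numbered pairs gave log2 differences of 0.56, 0.50 and 0.44. The mean rose from 7.51 ± 0.166 to 10.7 ± 0.689 FPKM (SD, n = 3), a fold change of 1.41 and a log2 fold change of 0.50 (SE 0.076, 95% confidence interval 0.32 to 0.68), with an adjusted p of 0.0136 in limma and 0.00674 when the replicate number was a block. The call was lost when siControl replicate 2 was left out (log2 fold change 0.51, adjusted p = 0.0522). The exact permutation test gave p = 0.1, the smallest that 3 libraries against 3 allow.

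In ACHN cells PCGF6 was at 5.11, 5.12 and 5.58 FPKM under siControl and at 9.89, 8.08 and 8.82 under siNUF2. Again the groups did not overlap, and the pairs gave log2 differences of 0.94, 0.65 and 0.65. The means were 5.27 ± 0.271 and 8.93 ± 0.910 FPKM (SD, n = 3), a fold change of 1.68 and a log2 fold change of 0.75 (SE 0.11, 95% confidence interval 0.48 to 1.01). Without the block limma called no gene in ACHN cells, and PCGF6 had an unadjusted p of 0.000458 and an adjusted p of 0.165. The study's own DESeq2 test, at the same cut-off on the adjusted p, did call genes in ACHN cells, PCGF6 among them. The lack of calls thus belongs to the limma fit of FPKM used here. PCGF6 was called with the replicate block (adjusted p = 0.0146) and in the fit of all 12 libraries without it (adjusted p = 0.00529). With the block and without replicate 2 of both siRNAs, the replicate with the high COL1A1 and PDGFRB, the log2 fold change was 0.79 (adjusted p = 0.0221). Without replicate 3 of both siRNAs it was again 0.79 but not called (adjusted p = 0.0714).

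The larger estimate in ACHN cells was not called different from that in the 769-P line. The difference of the responses for PCGF6, ACHN less 769-P, was 0.25 on the log2 scale. Its 95% confidence interval in limma was -0.033 to 0.53 without the block (adjusted p of 1.00) and 0.018 to 0.48 with it (adjusted p = 0.224). Limma called the response different between the lines for none of the 10 genes, beside 0% of all 16564 genes without the block and 1.52% with it. At an unadjusted p under 0.05 the count without the block was 0 of 10, beside 776 of all genes. With the block it was 1 of 10, which was PCGF6, beside 3300 of all genes, so the count was not above the background. The intervals of the difference with the block were within -0.45 and 0.48 for every one of the 10 genes.

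Taking the 10 genes together, 1 of 10 was called in the 769-P line without the block, which was PCGF6, beside 9.98% of the 14155 genes tested there (5.26% higher and 4.71% lower). With the block it was again PCGF6 alone, beside 27.5% of all genes. In ACHN cells 0 of 10 were called without the block, beside 0% of the 15116 genes, also by limma-voom on the recovered reads, and at an unadjusted p under 0.05 the counts were 2 of 10 and 1238 of all genes. With the block 3 of 10 were called in ACHN cells, PCGF6 higher and PCGF5 and RNF2 lower, beside 12.2% of all genes (7.14% higher and 5.05% lower). The groups of libraries did not overlap for 3 of 10 genes in the 769-P line (PCGF6, PCGF5 and RNF2) and for 2 of 10 in ACHN cells (PCGF6 and RNF2), beside 33.0% and 14.6% of all genes. All 3 same-numbered pairs went the same way for 6 of 10 genes in the 769-P line and 7 of 10 in ACHN cells, beside 63.0% and 54.8% of all genes, so these counts were near the background. In each line 3 of the 10 log2 fold changes were positive (PCGF6, PCGF3 and L3MBTL2), with a median of -0.067 in the 769-P line and -0.092 in ACHN cells, against -0.0090 and 0.0061 over all genes.

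**Figure D1:**
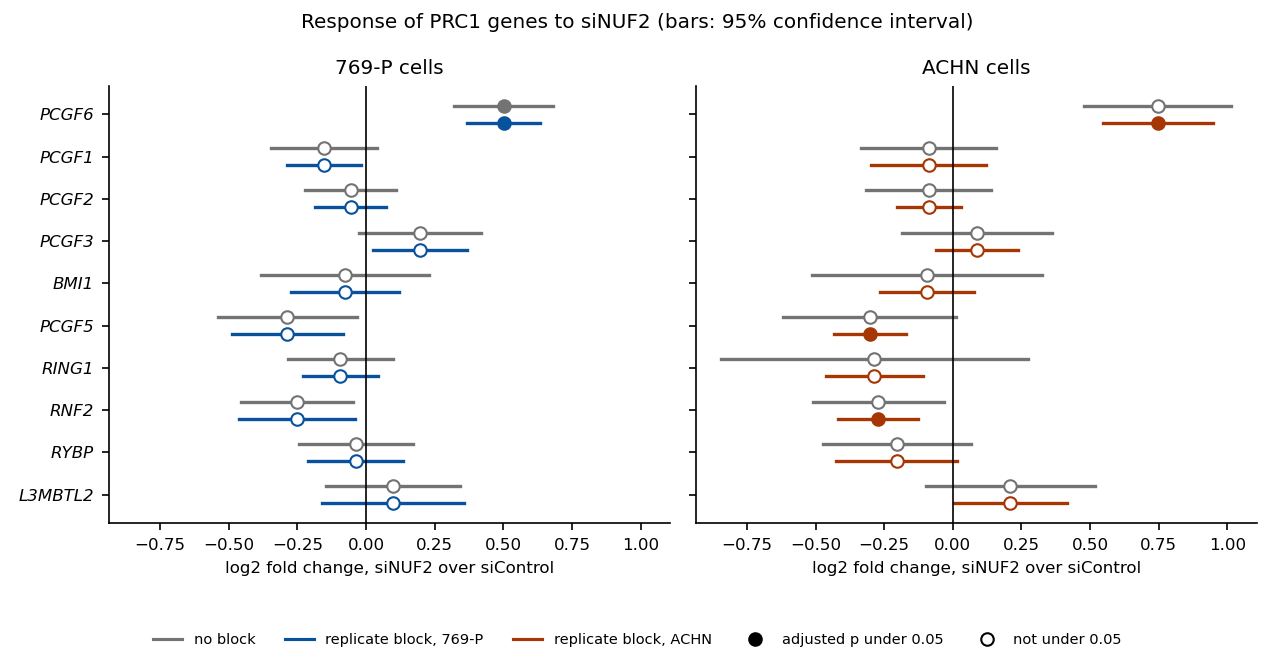
Log2 fold change of siNUF2 over siControl (x axis) for the 10 PRC1 genes in the 769-P line (left) and ACHN cells (right), with 95% confidence intervals from limma without the block (grey) and with the replicate block (coloured), and filled points for an adjusted p under 0.05. PCGF6 stands at 0.50 and 0.75, and the next highest value in either line is 0.21 (L3MBTL2 in ACHN cells).

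Of the other PCGF genes, PCGF5 had the largest estimates. PCGF5, which forms variant PRC1 with casein kinase 2, was at 8.30, 7.37 and 9.65 FPKM in the 769-P siControl libraries and at 7.07, 6.63 and 6.89 after siNUF2. ACHN cells had it at 11.0, 9.59 and 12.4 FPKM under siControl and at 8.90, 8.11 and 9.62 under siNUF2. It was lower in all 3 pairs of each line, by a ratio to the same-numbered control of 71.4% to 90.0% in the 769-P line and 77.6% to 84.5% in ACHN cells. The log2 fold change was -0.29 (SE 0.11, adjusted p = 0.141) in the 769-P line and -0.30 (SE 0.13, adjusted p = 0.625) in ACHN cells, and with the block the adjusted p was 0.0522 and 0.0302, so that it passed in ACHN cells and not in the 769-P line. In the 769-P line PCGF5 was called with the block in the fit of all 12 libraries (adjusted p = 0.0241) and in limma-voom (adjusted p = 0.00551). The ACHN call of PCGF5 was lost when any 1 of the 3 pairs was left out (adjusted p = 0.0846, 0.0564 and 0.133 without replicates 1, 2 and 3).

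PCGF3, the paralog that shares its partners with PCGF5, had positive estimates instead. It was at 9.15, 10.3 and 8.28 FPKM in 769-P controls and at 10.2, 10.9 and 10.6 after siNUF2, with overlapping groups. In ACHN cells the values were 5.19, 4.34 and 4.41 FPKM under siControl and 5.25, 4.82 and 4.74 under siNUF2. The log2 fold changes were 0.20 (SE 0.094, adjusted p = 0.228) and 0.088 (SE 0.11, adjusted p = 0.960), and neither passed with the block (adjusted p = 0.0868 and 0.362). In limma-voom on the recovered reads with the block, PCGF3 was called in the 769-P line (adjusted p = 0.0265) and not in ACHN cells (adjusted p = 0.352).

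The remaining PCGF genes were not called in either line. PCGF1, which anchors the complex with KDM2B and BCOR, had means of 6.29 ± 0.430 and 5.64 ± 0.207 FPKM (siControl, then siNUF2) in the 769-P line and 9.14 ± 0.568 and 8.59 ± 0.580 in ACHN cells, for log2 fold changes of -0.15 and -0.088 (adjusted p = 0.280 and 0.949). PCGF2, the main canonical paralog in both lines, had means of 14.2 ± 0.802 and 13.6 ± 0.0970 FPKM in the 769-P line and 27.3 ± 1.99 and 25.7 ± 0.985 in ACHN cells, for log2 fold changes of -0.056 and -0.088 (adjusted p = 0.653 and 0.940). BMI1, the other canonical paralog, had means of 5.94 ± 0.821 and 5.61 ± 0.638 FPKM in the 769-P line and 10.1 ± 1.17 and 9.50 ± 1.82 in ACHN cells, for log2 fold changes of -0.077 and -0.095 (adjusted p = 0.750 and 0.989). None of the 3 genes was called in any other setting either. For BMI1 the 95% confidence interval with the block ran from -0.27 to 0.12 in the 769-P line and from -0.27 to 0.076 in ACHN cells. Of the BMI1 exon bases, 23.3% are shared with the read-through gene COMMD3-BMI1, and 45.7% of those of PCGF2 overlap genes on the other strand, mainly CISD3. Genes on the other strand also overlap 16.3% of the exon bases of L3MBTL2 and 7.49% of those of PCGF3. Whether reads were counted by strand is not given in the sources used here, so reads of such neighbours cannot be told apart.

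As a result of these values PCGF6 made up more of the summed PCGF level after siNUF2. It accounted for 14.5% ± 0.213 (SD, n = 3) of the summed FPKM of the 6 PCGF genes in 769-P controls and for 20.1% ± 0.897 after siNUF2. In ACHN cells its share was 7.82% ± 0.443 under siControl and 13.4% ± 1.35 under siNUF2, and in both lines the ranges of the groups were apart. The sum itself was 51.6 ± 0.457 and 53.0 ± 1.20 FPKM in the 769-P line and 67.4 ± 2.03 and 66.5 ± 0.789 in ACHN cells. The share of PCGF5 went from 16.4% ± 2.31 to 12.9% ± 0.326 in the 769-P line and from 16.3% ± 1.86 to 13.3% ± 0.987 in ACHN cells. PCGF2 stayed the largest part of the sum, at 27.5% and 25.7% in the 769-P line and 40.5% and 38.6% in ACHN cells. Shares add up to a fixed sum, so a rise of one lowers the others, and these are RNA levels that do not say how much protein was in each complex. In bulk RNA, fewer cells with a transcript and less transcript per cell cannot be told apart.

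Both E3 ligase genes had negative estimates. RNF2, which encodes the more widely required of the ligases, was at 8.03, 8.64 and 9.32 FPKM in the 769-P controls and at 7.49, 7.52 and 6.77 after siNUF2. In ACHN cells RNF2 was at 7.06, 6.89 and 7.97 FPKM under siControl and at 5.92, 5.97 and 6.20 under siNUF2. Each siNUF2 library was below each control in both lines. The log2 fold change was -0.25 (SE 0.087, adjusted p = 0.118) in the 769-P line and -0.27 (SE 0.098, adjusted p = 0.539) in ACHN cells, and with the block the adjusted p was 0.0786 and 0.0451. In the fit of all 12 libraries with the block it was 0.0460 and 0.0574, and in limma-voom with the block 0.0203 and 0.0127. The ACHN call was lost when any 1 of the 3 pairs was left out (adjusted p = 0.112, 0.0816 and 0.174 without replicates 1, 2 and 3).

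RING1 followed the replicate number in ACHN cells more than the siRNA. It was at 27.6, 34.9 and 23.7 FPKM under siControl and at 20.1, 31.4 and 19.9 under siNUF2, so replicate 2 was the highest of both groups. The SD of the log2 values was 0.28 and 0.37 within the groups but 0.15 among the 3 pair differences. The log2 fold change was -0.29 (95% confidence interval -0.84 to 0.27, adjusted p = 0.878), and with the block the interval was -0.46 to -0.11 (adjusted p = 0.0586). RING1 was called lower in ACHN cells with the block in the fit of all 12 libraries (adjusted p = 0.0312) and in limma-voom (adjusted p = 0.0151). In the 769-P line RING1 was at 15.4, 18.1 and 16.8 FPKM under siControl and 15.0, 15.8 and 16.2 under siNUF2, a log2 fold change of -0.094 (adjusted p = 0.508). The ratio of RING1 to RNF2 was 1.94 ± 0.149 and 2.17 ± 0.200 in the 769-P line and 3.98 ± 1.04 and 3.96 ± 1.13 in ACHN cells (siControl, then siNUF2, SD, n = 3).

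Neither accessory subunit gene was called. L3MBTL2, whose product recognises methylated histones and sits in the PCGF6 complex, was at 4.99, 5.35 and 4.36 FPKM in 769-P controls and 5.44, 4.80 and 5.49 after siNUF2. In ACHN cells L3MBTL2 was at 2.34, 2.74 and 2.39 FPKM under siControl and at 2.59, 3.02 and 3.09 under siNUF2, higher in all 3 pairs with overlapping groups. Its log2 fold changes were 0.098 (adjusted p = 0.592) and 0.21 (adjusted p = 0.789), with block values of 0.507 and 0.152 for the adjusted p. RYBP, which stimulates the ligase of the variant complexes, was at 4.49, 4.55 and 5.26 FPKM in 769-P controls and 4.64, 4.58 and 4.67 after siNUF2, with no shift of the group as a whole. In ACHN cells RYBP was at 11.9, 9.88 and 11.8 FPKM and then at 9.09, 9.99 and 9.95, a log2 fold change of -0.20 (adjusted p = 0.748, and 0.180 with the block).

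Among the partners of PCGF6, HDAC1 rose and CBX3 fell in the 769-P line without the block, where 5.26% of all genes were higher and 4.71% lower. HDAC1 and HDAC2 encode the histone deacetylases of the complex, and HDAC2 had a log2 fold change of -0.048 in the 769-P line (adjusted p = 0.701) and 0.052 in ACHN cells (adjusted p = 0.984). MGA, the scaffold that binds DNA with MAX, had means of 1.41 ± 0.112 and 1.28 ± 0.0839 FPKM in the 769-P line and 3.53 ± 0.436 and 3.86 ± 0.153 in ACHN cells (siControl, then siNUF2). MAX had means of 5.31 ± 0.311 and 5.97 ± 0.268 FPKM in the 769-P line and 14.5 ± 1.41 and 14.4 ± 1.23 in ACHN cells. Neither was called in either line with or without the block, and the lowest of their adjusted p-values was 0.109. E2F6 and TFDP1, which form the other DNA-binding pair, had log2 fold changes of -0.28 and -0.34 in the 769-P line (adjusted p = 0.120 and 0.181) that passed with the block (adjusted p = 0.0369 and 0.0354), and values of -0.037 and -0.13 in ACHN cells (adjusted p = 0.797 and 0.134 with the block). CBX3, a heterochromatin protein of the complex, fell in the 769-P line from 83.9 ± 1.77 to 67.3 ± 4.81 FPKM (log2 fold change -0.32, SE 0.070, adjusted p = 0.0350), and its ACHN means were 74.9 ± 4.90 and 72.6 ± 2.24 FPKM (adjusted p = 0.989). The difference of the CBX3 responses was not called (0.28 on the log2 scale, adjusted p = 0.974, and 0.121 with the block). WDR5, shared with histone methyltransferase complexes, was called only in ACHN cells with the block (log2 fold change 0.27, adjusted p = 0.0265), and YAF2, the paralog of RYBP, only in the 769-P line with the block (0.29, adjusted p = 0.0468).

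Among the 32 other PRC1 subunit genes, all of which passed the filter on low values in the 769-P line, 3 rose and 1 fell there without the block, beside 5.26% and 4.71% of all genes. HDAC1, the deacetylase named above, rose from 56.6 ± 1.95 to 85.0 ± 3.11 FPKM (log2 fold change 0.59, SE 0.061, adjusted p = 0.00532). KDM2B, a histone demethylase that brings the PCGF1 complex to unmethylated CpG islands, was at 1.08, 1.15 and 0.893 FPKM in the controls and at 1.90, 1.78 and 1.74 after siNUF2, for a log2 fold change of 0.75 (SE 0.14, adjusted p = 0.0220). CBX6, a chromodomain subunit of canonical PRC1, rose from 19.4 ± 2.42 to 27.4 ± 1.72 FPKM (log2 fold change 0.50, SE 0.10, adjusted p = 0.0300), and the gene that fell was CBX3. HDAC1 and KDM2B had log2 fold changes of 0.51 and 0.79 in ACHN cells as well, called there with the block (adjusted p = 0.0166 and 0.0194) and not without it (0.317 and 0.445). CSNK2A2, a catalytic subunit of casein kinase 2, was called in both lines only with the block, at 0.35 in each (adjusted p = 0.0106 and 0.0172). With the block the counts were 6 higher and 8 lower of 32 in the 769-P line, beside 13.6% and 13.9% of all genes, and 5 higher and 0 lower of 31 in ACHN cells, beside 7.14% and 5.05%. The median log2 fold change of the list was -0.063 in the 769-P line and -0.015 in ACHN cells.

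Polycomb repressive complex 2 (PRC2) is the methyltransferase complex that acts beside PRC1. Of its 13 genes, 2 rose and 0 fell in the 769-P line, both with and without the block. Of all genes, 5.26% were higher and 4.71% lower without the block, and 13.6% and 13.9% with it. JARID2, an accessory subunit, was at 1.76, 1.87 and 2.06 FPKM in the controls and at 2.59, 3.10 and 4.03 after siNUF2 (log2 fold change 0.72, SE 0.17, adjusted p = 0.0403). RBBP4, a histone-binding subunit found in several chromatin complexes, rose from 18.5 ± 0.667 to 23.0 ± 0.174 FPKM (log2 fold change 0.32, adjusted p = 0.0258). In ACHN cells RBBP4 had a log2 fold change of 0.34 that passed with the block (adjusted p = 0.0276), and JARID2 one of 0.37 that did not (adjusted p = 0.0661). PHF19, a subunit that binds methylated histone H3, was the other PRC2 gene called in ACHN cells with the block (log2 fold change 0.33, adjusted p = 0.0219, and 0.934 without it), so that 2 rose and 0 fell of 13 there, beside 7.14% and 5.05% of all genes. The list had a median of -0.071 in the 769-P line and 0.11 in ACHN cells.

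The PR-DUB complex removes ubiquitin from histone H2A and so opposes PRC1. Of its 11 genes, 10 passed the filter in each line, and 2 rose and 0 fell in the 769-P line without the block, beside 5.26% and 4.71% of all genes. With the block 2 rose and 2 fell there, beside 13.6% and 13.9%, and those that fell were ASXL2 (log2 fold change -0.26, adjusted p = 0.0412), a scaffold of the deubiquitinase, and KDM1B (-0.39, adjusted p = 0.0153), a histone demethylase. In ACHN cells 1 rose and 0 fell with the block, beside 7.14% and 5.05%. FOXK2, a DNA-binding partner, rose from 6.59 ± 0.483 to 8.97 ± 0.0304 FPKM (log2 fold change 0.44, SE 0.079, adjusted p = 0.0205), and its log2 fold change of 0.36 in ACHN cells passed with the block (adjusted p = 0.0266). MBD6, another subunit, rose from 6.49 ± 0.0889 to 8.42 ± 0.652 FPKM (log2 fold change 0.37, adjusted p = 0.0363), while in ACHN cells it went with the replicate number, at 9.16 and 10.2 FPKM in replicate 1 and at 16.4 and 18.5 in replicate 2 (siControl, then siNUF2).

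**Figure D2:**
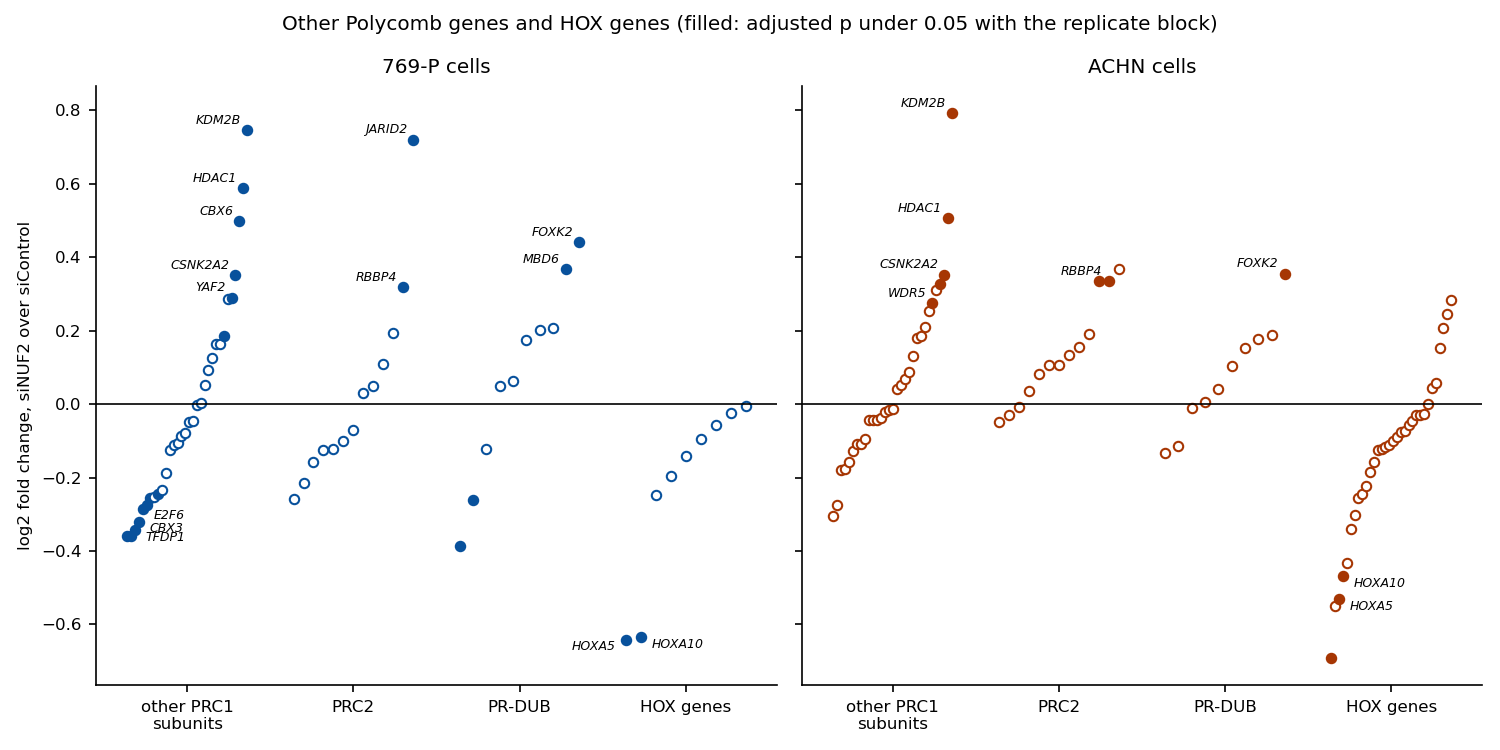
Log2 fold change of siNUF2 over siControl (y axis) of the tested genes of 4 lists, ordered by value within each list (x axis), in the 769-P line (left) and ACHN cells (right), with filled points for an adjusted p under 0.05 in limma with the replicate block. KDM2B and HDAC1 lie at the top of the PRC1 list in both lines, and HOXA5 and HOXA10 are at or below -0.47 in both.

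HOX genes, the classical targets of Polycomb repression, were expressed at very different levels in the lines. Of the 39 genes of the HOX clusters, 9 were at 0.5 FPKM or more in all 3 siControl libraries of 769-P cells and 31 in those of ACHN cells. The HOXB cluster was the clearest case, with 0 of 10 genes at that level in the 769-P line and 9 of 10 in ACHN cells. HOXB9, for example, was at 0.0208 ± 0.00780 FPKM in 769-P controls and at 25.4 ± 3.60 in ACHN controls. HOXA9, which both lines expressed, was at 6.76 ± 0.194 and 43.9 ± 16.7 FPKM (log2 difference 2.57, adjusted p = 6.34e-06). All 32 HOX genes that could be tested were higher in ACHN cells, but most of them passed the filter through the ACHN libraries alone, so the count is no test.

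Few HOX genes were called after siNUF2, and those that were fell. HOXA10 was at 2.95, 3.64 and 3.81 FPKM in 769-P controls and at 2.16, 2.36 and 2.04 after siNUF2 (log2 fold change -0.64, SE 0.12, adjusted p = 0.0254). In ACHN cells HOXA10 was at 10.5, 17.6 and 14.5 FPKM under siControl and at 7.38, 13.7 and 9.93 under siNUF2, lower within each pair, and its log2 fold change of -0.47 passed with the block (adjusted p = 0.0171) but not without it (0.787). HOXA5 had log2 fold changes of -0.64 and -0.53, called in both lines with the block only (adjusted p = 0.0388 and 0.0189). Without the block 1 of the 9 HOX genes tested in the 769-P line fell and 0 rose, and with it 2 fell and 0 rose, beside 4.71% and 13.9% of all genes that were lower. In ACHN cells 3 of 32 fell and 0 rose with the block, beside 5.05% lower of all genes, the third being HOXA7, which was near 0 in the 769-P line. The median log2 fold change was -0.14 in the 769-P line and -0.11 in ACHN cells.

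Germline genes, which the PCGF6 complex silences in other cell systems, were nearly silent in all groups. Of 12 such genes, 11 did not exceed 0.349 FPKM in any of the 12 libraries, and DAZL and TEX101 were listed at 0 throughout. STAG3 alone passed the filter, in the 769-P line only, with a log2 fold change of -0.12 (adjusted p = 0.651).

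The genes whose pattern was most like that of PCGF6 were found from the Pearson correlation of log2 levels across the 12 libraries, after the mean of each line was taken out. They were GTF3A (r = 0.99), which encodes a transcription factor of RNA polymerase III, TOR3A (r = 0.98), KPNA6 (r = 0.97), a nuclear import receptor, COPS8 (r = 0.97), a subunit of the COP9 signalosome, and DPH3 (r = 0.96), which acts in diphthamide synthesis, out of 12929 genes. The libraries share the siRNA contrast, so any gene that rises in both lines correlates with PCGF6. GTF3A had log2 fold changes of 0.61 in the 769-P line (adjusted p = 0.00935) and 0.87 in ACHN cells (adjusted p = 0.0149 with the block, 0.142 without). Within PRC1 the values lay between -0.80 for RNF2 and 0.55 for PCGF3, and that of PCGF5 was -0.70.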

How the data were processed

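Total RNA of 12 libraries was sequenced on an Illumina platform. Per the labels and the methods, the authors filtered reads with fastp, and the submitters' processing notes name HISAT2 2.0.5, featureCounts 1.5.0-p3 and hg38. The annotation is not given in the sources used here. The authors deposited 1 FPKM value per gene and library, and their own DEGs came from DESeq2. Low FPKM, multiplied by exon lengths of GENCODE release 29, were whole multiples of 1 read for 96.9% to 97.4% of values per library (tolerance 0.02 reads). For PCGF6 the length of release 29, 3008 bases, did not give whole reads and 2613 did, so its FPKM rest on another gene model. This does not affect comparisons of its own values between libraries, but it enters the level of PCGF6 beside other genes and its share. Recovered reads served for the depth and for limma-voom, an alternative added after the data were seen. Intervals cover the spread between libraries.

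FPKM were scaled by a trimmed mean of log ratios (30% and 5% trims), and log2(FPKM + 0.1) was fitted with limma 3.58.1 in R 4.3.3 (lmFit, eBayes with trend) for genes with at least 0.5 FPKM in at least 3 libraries, so fold changes of low genes are understated. Each line was fitted alone, and the difference between lines in 1 fit of all 12. P-values were adjusted by Benjamini-Hochberg over all genes, and genes were called at an adjusted p under 0.05. Tests are two-sided. Same-numbered libraries deviated together from their group means (r = 0.19 to 0.36 in the 769-P line and 0.46 to 0.73 in ACHN cells). A fit that takes the number as a replicate block is therefore given beside the main one. All other pairs were negative, but this is partly forced, because deviations from a group mean cancel out within the group. The labels do not say what a number stands for. The fits were tested on simulated data. The genes and lists were chosen with earlier results of these data known. Named were the 10 genes, NUF2, 7 partners of PCGF6, the 5 genes most like PCGF6, and from each list up to 5 genes called in the 769-P line or, with the block, in both lines. HDAC2, PHF19, ASXL2, KDM1B, HOXA7, HOXA9, HOXB1, HOXB9, HOXC12, STAG3, DAZL and TEX101 were named after their values were seen. Gene positions come from GENCODE 29 on GRCh38, promoters from RefSeq. Python 3.11.15 (with pandas 2.3.3, matplotlib 3.10.9, SciPy 1.17.1 and NumPy 2.4.6) served for tables and plots. Alternatives were other scalings, filters of none or 1 FPKM, pseudocounts of 1 and 0.01, the block, all 12 libraries in 1 fit, and each library left out in turn.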

Additional observations from a re-analysis of the deposited data

How the results depend on the processing

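The baseline difference between the lines, with all 10 genes called, kept 9 or 10 calls in every alternative, and no alternative called a difference of the siNUF2 response between the lines for any of the 10. Under the other scalings, filters and pseudocounts without the block, PCGF6 was the only one of the 10 genes called in the 769-P line and none of the 10 was called in ACHN cells. The replicate block moved the ACHN count from 0 to 3, beside 12.2% of all genes, and all 12 libraries in 1 fit moved it to 1, beside 171 of 16564. Both choices together gave 3 in each line, beside 4552 of 16564 genes in the 769-P line and 2490 in ACHN cells. Limma-voom with the block gave 4 in each line, beside 5262 of 14122 genes in the 769-P line and 3569 of 15079 in ACHN cells. Those called by limma-voom were PCGF3, PCGF5, PCGF6 and RNF2 in the 769-P line and PCGF5, PCGF6, RING1 and RNF2 in ACHN cells. Leaving out 1 library at a time gave 0 to 1 called in the 769-P line (0 without siControl replicate 2), 0 in ACHN cells, 0 for the difference of the responses and 9 to 10 for the baseline. Over all genes these fits called 357 to 1144, 0, 0 to 1 and 9673 to 10593, in the same order. With the block and both libraries of a number left out, the counts were 1 in the 769-P line and 0 to 1 in ACHN cells, beside 1691 to 3034 and 0 to 1088 of all genes. Of the 107 other Polycomb genes and targets, only those that passed the filter were tested in the main fits, so 107 is not the number tested. In the 769-P line these were 32 other PRC1, 13 PRC2, 10 PR-DUB, 9 HOX and 1 germline gene. In ACHN cells they were 31, 13, 10, 32 and 0, in the same order. Among the genes tested 9 were called in the 769-P line and 0 in ACHN cells, beside 1412 of 14155 and 0 of 15116 genes. These became 22 and 11 with the replicate block (3898 and 1843 over all genes) and 5 and 1 with all 12 libraries in 1 fit (700 and 171). They were 27 and 18 with both (4552 and 2490) and 29 and 23 by limma-voom with the block (5262 and 3569). With no filter, which adds tests, the count in the 769-P line was 3 (635 over all genes). The calls over all genes thus moved the same way. Leaving out 1 library gave 1 to 5 in the 769-P line and 0 in ACHN cells, and leaving out both libraries of a number with the block gave 8 to 16 and 0 to 7. The counts over all genes in these fits are those given above. Signs turned only for values near 0. With 1 library left out, the log2 fold change of BMI1 ran from -0.18 to 0.018 in the 769-P line and from -0.23 to 0.048 in ACHN, and that of RYBP from -0.078 to 0.034 in the 769-P line. With the block, BMI1 became 0.0087 and RYBP 0.027 in the 769-P line without replicate 3 of both siRNAs, L3MBTL2 became -0.015 there without replicate 3 of both, and PCGF1 became 0.011 in ACHN cells without replicate 1 of both. The cause was not tested. Counting error, as an SD, ran from 1.66% of a value (PCGF5 at its most reads) to 4.86% (PCGF6 at its fewest). Differences of that size between single libraries are not detectable at this depth.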
